A study of Mus musculus with 41 samples.

Results

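The samples described here are bisulfite sequencing libraries of Th2 cells that had completed a second cycle of culture, from TDG knockout mice and from their wild-type (WT) controls. They were chosen by their labels, which give the genotype line, the culture cycle, the assay and the replicate number, and they number 4 of the 41 samples of the series, 2 of each genotype. All CpGs of the minus strand inside the amplicons of the mouse Il4 locus on chromosome 11 (build mm9) were read, 64 in all, and 63 of them had at least 100 reads in each of the 4 libraries.

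The study asked what TET enzymes and TDG each contribute to DNA demethylation in T cells. Both groups are C57BL/6 CD4 T cells from spleen and lymph nodes, labelled Tdg-iKO (iKO here) or wild type, with the treatment given as none. The iKO mice carried loxP-flanked Tdg alleles and the Rosa26-H2B-EGFP/GPI-mCherry LSL reporter of Cre activity. The mice were 8 to 16 weeks old, and iKO and control mice alike received 2 mg tamoxifen by injection for 5 days. Naïve CD4 T cells were sorted, with a gate on EGFP for reporter mice, and polarised towards Th2 in a first cycle of 6 days. They then rested for 1 day without cytokines, were stimulated again for 1 day through CD3 and CD28 with 1000 U/ml IL-4 and anti-IFN-γ at 1 µg/ml, and were expanded for 4 days in 20 U/ml IL-2. The methods name control mice apart from Cre-expressing mice and do not give their genotype or say whether they carried the reporter. The amplicons do not cover Tdg and no RNA or protein was measured in these libraries, so neither the deletion nor the Th2 identity of the cells could be checked in these libraries. The methods describe a measurement of the deletion by qRT-PCR after the first cycle. The comparison groups were naïve CD4 T cells of wild-type C57BL/6 mice with no culture (3 libraries), the first cycle of the same TDG line (3 samples of each genotype, of which 2 whose file names give the same library were summed, so that 2 libraries were counted), and the second cycle of the TET line, with genotypes TET-iTKO (iTKO here; loxP-flanked Tet1, Tet2 and Tet3) and wild type (2 libraries each). The regression also held WT Th2 cells (3 libraries) and the first cycle of the TET line, iTKO and wild type (2 libraries each). Another assay, pyridine borane sequencing, is described at the end for first-cycle Th2 cells. Its samples came from the same TDG line and from a line with CD4cre, each with Tdg-deleted and wild-type cells.

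Il4 encodes the signature cytokine of Th2 cells, and its regulatory regions lose DNA methylation as naïve CD4 T cells become Th2 cells. TET enzymes oxidise 5-methylcytosine (5mC) to 5-hydroxymethylcytosine (5hmC) and on to 5-formylcytosine (5fC) and 5-carboxylcytosine (5caC). TDG is the glycosylase that excises 5fC and 5caC, which base excision repair then replaces with unmodified cytosine. Bisulfite sequencing reads 5mC and 5hmC as C and reads 5fC, 5caC and unmodified cytosine as T, so a level here is 5mC and 5hmC together, as a percentage of the reads at a CpG, and a 5fC or 5caC base that was not excised counts as demethylated.

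The 4 libraries differed in depth. The median number of reads per CpG was 1085 in WT replicate 1, 3901 in WT replicate 2, 920 in iKO replicate 1 and 4439 in iKO replicate 2. By this median replicate 2 was the deeper in both genotypes, but in the 3′ region of HSII and at the 5′ edge of CNS2 replicate 1 was, with 5083 reads in WT replicate 1 and 1593 in WT replicate 2 at CpG38, and 3249 and 2527 in the iKO libraries. Exon 1 and the 3′ edge of CNS2 were thin in the replicate 1 libraries. CpG23 (numbered 5′ to 3′ on the minus strand), in the untranslated part of exon 1, had 33 reads in WT replicate 1 and 35 in iKO replicate 1 and was not tested. At non-CpG cytosines, 0.166% and 0.154% of the bases read in the WT libraries and 0.174% and 0.160% in the iKO libraries were C. The share left unconverted by bisulfite was therefore alike in the 4 libraries.

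Along the locus, the 2 genotypes had the same outline of levels. Exon 3 stayed near the level of naïve cells, the core of CNS2 was near 0, and CNS1, the promoter, exon 1, intron 1 and the 3′ region of HSII lay between these. Across the 63 CpGs, the mean levels of WT and iKO had a Pearson correlation of 0.991, beside 0.990 for the 2 WT libraries and 0.992 for the 2 iKO libraries. A correlation of means and a correlation of single libraries are not the same quantity, and the wide range of levels along the locus raises both. CpGs of 1 amplicon come from the same molecules and are not independent. In 6 of the 8 regions, the CpG with the lowest level and the CpG with the highest level were the same in both genotypes. CpG3 was the lowest of CNS1, at 8.84% ± 5.57 in WT and 10.7% ± 2.14 in iKO (SD, n = 2 each), CpG28 the lowest of exon 1, at 5.15% ± 2.19 and 7.30% ± 0.774, and CpG29 the lowest of the intron 1 amplicon, at 11.7% ± 2.36 and 15.02% ± 4.76. The exceptions were exon 3, where the levels spanned less than 2 points, and the core and 3′ edge of CNS2, where 12 of 13 CpGs had no read with C in at least 1 library.

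**Figure D1:**
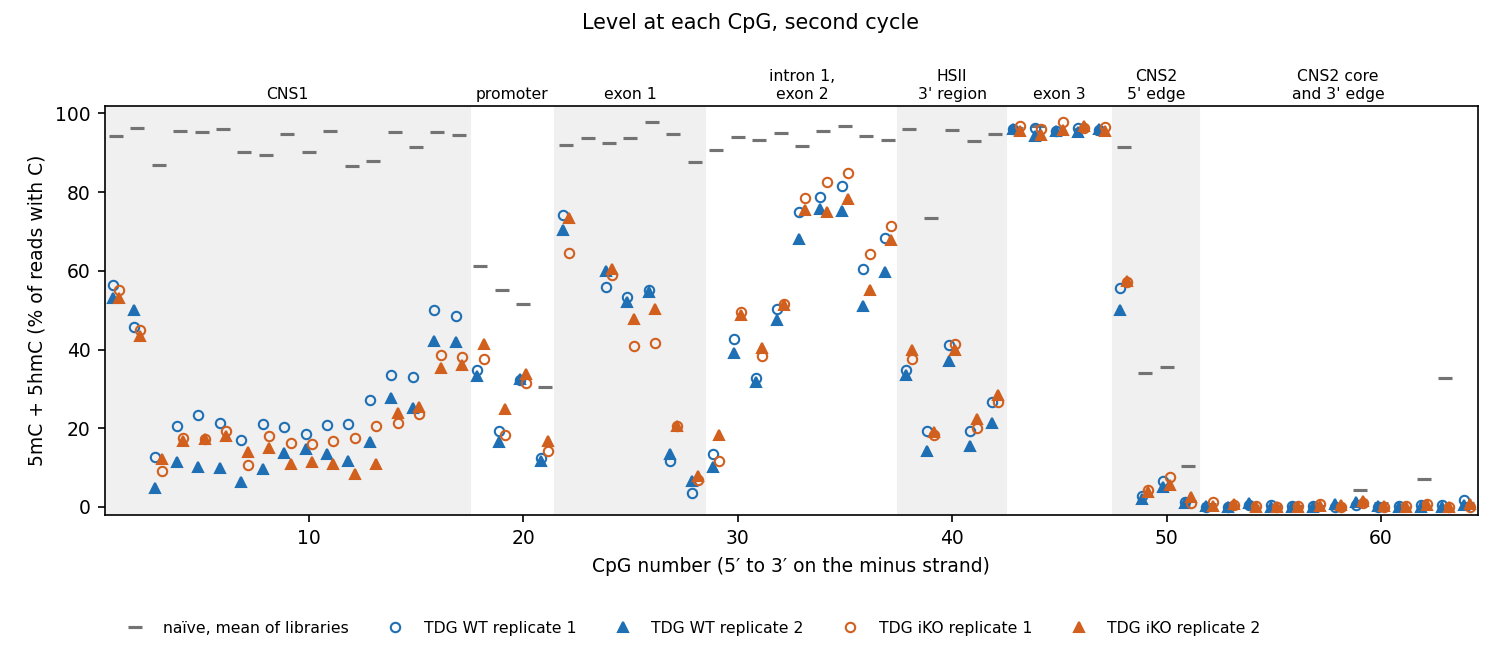
Level of 5mC and 5hmC (vertical axis, % of reads with C) at each CpG (horizontal axis, CpG number) in the 2 WT and the 2 iKO libraries of the second cycle, with the mean of the naïve libraries as a bar. Symbols of both genotypes follow the same course, with exon 3 above 94% and the core of CNS2 under 2%.

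At single CpGs, no difference between iKO and WT passed the test. The binomial regression over all 22 bisulfite libraries of the design, with its dispersion moderated by limma, called 0 of 63 CpGs (0%) at an adjusted p under 0.05, and 0 had an unadjusted p under 0.05. With limma on log2 ratios the counts were 0 and 2, and with only the 2 groups compared in the regression 0 and 5. The 95% interval of the difference included 0 at all 63 CpGs. Its half-width had a median of 8.62 points and ran from 0.758 points in CNS2 to 14.1 points in exon 1, so that the upper limit was above 10 points at 26 CpGs and above 20 points at 0, and the lower limit was below -10 points at 15 CpGs and below -20 points at CpG25 alone (-21.4 points). Differences smaller than these widths could not be told from 0 with 2 libraries a group, and on simulated data larger ones were missed too. These p-values rest on a spread between libraries estimated over all 22 libraries, not on the libraries compared alone. The overdispersion was shared by all CpGs, and the moderated dispersion was not let below 1. The labels do not name separate animals, so a spread between animals is not measured. The study's captions give 2 independent experiments for these data.

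Fisher's exact test, which counts reads and takes no account of the spread between libraries, called 43 of 63 CpGs (68.3%) on reads summed per genotype. Within each replicate number, it called 12 CpGs in both with the same sign (19.0%), 7 higher and 5 lower in iKO. The higher ones were CpG27, CpG30, CpG31, CpG35, CpG38, CpG45 and CpG49, and the lower ones were CpG14, CpG16, CpG17, CpG25 and CpG26. The reads are PCR copies without molecular identifiers, so these counts and all intervals of single libraries cover counting error only.

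The absolute difference between the 2 WT libraries had a median of 3.07 points over the 63 CpGs, that between the 2 iKO libraries 1.67 points, and that between the genotype means 2.02 points. The largest values were 13.1, 9.47 and 9.21 points. A gap between single libraries and a difference between means of 2 are not the same quantity, and neither is a test. The mean level was higher in iKO at 42 CpGs and lower at 21. Both iKO libraries lay above both WT libraries at 17 CpGs and below both at 7, in all 24 of 63 (38.1%). With no difference between the genotypes, 2 libraries against 2 would lie apart in this way with a probability of 0.333. At CpGs with a WT level of at least 20% and under 80%, 8 of 25 were above and 6 below. At those under 20%, 7 of 33 were above and 1 below.

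WT replicate 1 was above WT replicate 2 at 51 of 63 CpGs, whereas iKO replicate 1 was above iKO replicate 2 at 33. The mean over all 63 CpGs was 32.4% in WT replicate 1, 29.1% in WT replicate 2, 31.3% in iKO replicate 1 and 30.99% in iKO replicate 2. The 2 iKO libraries thus lay between the 2 WT libraries. By replicate number, iKO was higher than WT in both at 26 CpGs and lower in both at 13, and the differences of replicate 1 and of replicate 2, which share no library, had a Pearson correlation of 0.495 over the 63 CpGs. CpGs of 1 amplicon share molecules here too. The difference of the means was 0.408 points (95% interval from the fit to all libraries, -5.33 to 6.15), and without WT replicate 2 it was -1.23 points.

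The regions did not all lean the same way. In 4 of the 8, both iKO libraries had a higher mean than both WT libraries, and in the other 4 the genotypes overlapped. For 2 libraries against 2, an exact permutation test (two-sided) cannot give a p below 0.333, the value it gave for each of the 4 regions without overlap.

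The amplicon of intron 1 and exon 2 (chr11:53431630-53431948), 9 CpGs inside the body of Il4 just 3′ of the first exon, had the largest difference of the unweighted region means with all 4 libraries at 100 reads. This rank changed with the setting: CNS1 was ahead of it when weighted by reads and with at least 500 reads. In CNS1 the first of these rests mostly, and the second only, on CpGs 14 to 17, which lie in 1 amplicon. Without WT replicate 2, CNS1 (-6.44 points) and the promoter (2.65 points) were ahead, and without iKO replicate 1 the promoter (5.17 points), CNS1 (-3.76 points) and the 3′ region of HSII (3.66 points) were, beside 3.28 points for this amplicon. Its mean was 55.9% in WT replicate 1, 50.9% in WT replicate 2, 59.2% in iKO replicate 1 and 56.7% in iKO replicate 2. Both iKO libraries were above both WT libraries, although iKO replicate 2 exceeded WT replicate 1 by less than 1 point. The means were 53.4% ± 3.57 and 57.9% ± 1.77 (SD, n = 2 each), a difference of 4.53 points (95% interval from limma, -0.721 to 9.78). All 9 CpGs had a higher mean in iKO, beside 42 of 63 over the locus. At 4 of them iKO lay above WT without overlap, beside 17 of 63 over the locus. They were CpG30, CpG31, CpG32 and CpG33, of which CpG32 and CpG33 were picked out after their values were seen. Without WT replicate 1 the difference was 7.05 points, and without WT replicate 2 it was 2.00 points.

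CpG30, in intron 1 (position 53431883), had the largest increase of all CpGs tested. Its level was 42.6% in WT replicate 1 (763 of 1793 reads), 39.1% in WT replicate 2 (7304 of 18671), 49.6% in iKO replicate 1 (824 of 1662) and 48.7% in iKO replicate 2 (9416 of 19329). The genotypes did not overlap, and the difference was 8.31 points, with 95% Wilson intervals of 40.3% to 44.9% in WT replicate 1 and 47.2% to 51.98% in iKO replicate 1. In the regression the difference was 8.34 points (95% interval, -1.97 to 18.7; adjusted p = 0.866, higher in iKO in both replicate numbers). CpG31, the next CpG 3′ of it, had 32.8% and 31.7% in WT and 38.3% and 40.3% in iKO.

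The promoter amplicon (chr11:53432389-53432583), 4 CpGs upstream of the transcription start, had a mean of 24.7% and 23.4% in WT replicates 1 and 2 and of 25.5% and 29.2% in iKO replicates 1 and 2. iKO replicate 2 stood apart from the other 3 libraries, and iKO replicate 1 was less than 1 point above WT replicate 1. The difference was 3.28 points (95% interval from limma, -5.15 to 11.7), and without iKO replicate 2 it was 1.38 points. CpG18 (position 53432516) had the largest difference of the region, with 34.9% and 33.2% in WT and 37.7% and 41.4% in iKO.

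The 3′ region of HSII, a hypersensitive site in intron 2 (amplicon chr11:53430150-53430347, CpGs 38 to 42), had 28.2% and 24.3% in WT and 28.8% and 29.9% in iKO. iKO replicate 1 was again less than 1 point above WT replicate 1, and WT replicate 2 was the lowest. The difference was 3.12 points (95% interval from limma, -5.48 to 11.7), with a higher mean in iKO at 5 of 5 CpGs, beside 42 of 63 over the locus. Without WT replicate 2 it was 1.17 points, and without WT replicate 1 it was 5.08 points. CpG38 (position 53430322) differed by 4.52 points, with 34.7% and 33.6% in WT and 37.6% and 39.8% in iKO.

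At the 5′ edge of CNS2, an enhancer 3′ of Il4 also known as HSV (amplicons within chr11:53418901-53419662, CpGs 48 to 51), the mean was 16.5% and 14.6% in WT and 17.5% and 17.3% in iKO. The iKO libraries were close to each other and above both WT libraries. The difference was 1.88 points (95% interval from limma, -1.72 to 5.47). It was 0.885 points without WT replicate 2, 2.87 points without WT replicate 1, and 1.24 points weighted by reads. CpG48 (position 53419636) had the largest difference of the region, with 55.7% and 50.1% in WT and 57.3% and 57.5% in iKO. CpG49 (position 53419562) had 2.78% and 1.94% in WT and 4.35% and 3.68% in iKO, a difference of 1.65 points at a low level.

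**Figure D2:**
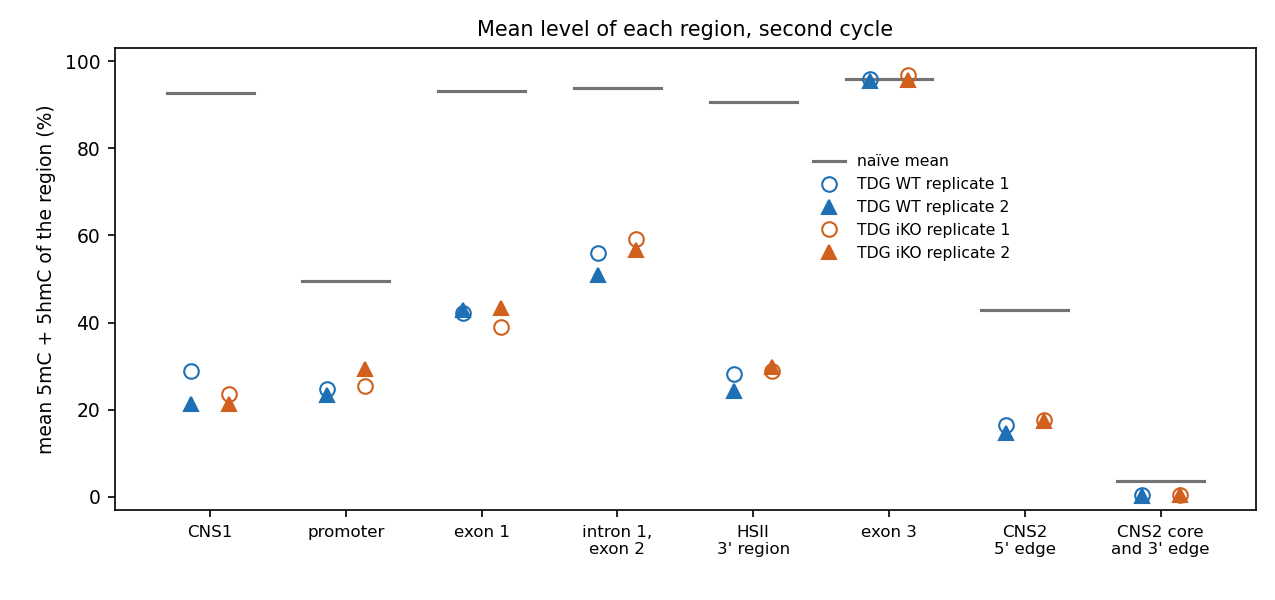
Mean level of 5mC and 5hmC (vertical axis, %) of each region (horizontal axis) in each of the 4 libraries of the second cycle, with the mean of the naïve libraries as a line. The iKO symbols lie above the WT symbols in the promoter, the amplicon of intron 1 and exon 2, the 3′ region of HSII and the 5′ edge of CNS2.

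CNS1, a conserved noncoding sequence between Il13 and Il4 (chr11:53440236-53440800, CpGs 1 to 17), had 28.9% in WT replicate 1, 21.3% in WT replicate 2, 23.5% in iKO replicate 1 and 21.3% in iKO replicate 2. WT replicate 1 stood apart from the other 3 libraries, which lay between 21.3% and 23.5%. The means were 25.1% ± 5.35 and 22.4% ± 1.55 (SD, n = 2 each), a difference of -2.66 points (95% interval from limma, -10.4 to 5.07; exact permutation p = 1), and without WT replicate 1 it was 1.12 points. Weighted by reads, it was -6.45 points, and over the 4 CpGs with at least 500 reads, -7.51 points. These were CpGs 14 to 17, all in 1 amplicon, which also carries most of the weight by reads. CpG14 had at least 5336 reads in each library, and CpG13, in the next amplicon, at least 430. By replicate number, 9 of the 17 CpGs were lower in iKO in both and 0 were higher in both, beside 13 and 26 of 63 over the locus. The direction differed along the element. Over CpGs 3 to 8 the means were 19.4% and 8.70% in WT and 15.3% and 15.5% in iKO, so that both iKO libraries fell between the WT libraries. Over CpGs 1 to 8 the difference was 0.494 points (-3.30 and 4.29 points by replicate number). The rest of CNS1, CpGs 9 to 17, is not among the stretches listed for naming. There, 23.2% and 19.2% in iKO stood beside 30.3% and 23.01% in WT, a difference of -5.47 points with overlap between iKO replicate 1 and WT replicate 2. By replicate number the differences of this stretch were -7.16 and -3.77 points.

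The 3′ end of CNS1 held the largest decrease. CpG16 (position 53440339) had 50.1% in WT replicate 1 (3062 of 6116 reads), 42.3% in WT replicate 2 (27566 of 65234), 38.5% in iKO replicate 1 (2056 of 5338) and 35.4% in iKO replicate 2 (22836 of 64528). Both iKO libraries were below both WT libraries, and the WT libraries were 7.81 points apart. The difference was -9.21 points, and in the regression -9.19 points (95% interval, -19.3 to 0.904; adjusted p = 0.866, lower in iKO in both replicate numbers). CpG17 had 48.5% and 42.04% in WT and 38.1% and 35.96% in iKO. Over the 17 CpGs of CNS1, iKO lay below WT without overlap at 4, beside 7 of 63 over the locus. They were CpG2, CpG14, CpG16 and CpG17, of which CpG2 was picked out after its values were seen; 0 of the 17 lay above, beside 17 of 63.

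Exon 1 (amplicon chr11:53431960-53432290, 6 CpGs tested, with exon 1 of transcript Il4-001 at 53431977 to 53432171) had 42.3% and 42.9% in WT and 38.9% and 43.4% in iKO. The genotypes overlapped. The difference of -1.45 points (95% interval from limma, -11.3 to 8.39; exact permutation p = 1) was 0.803 points without iKO replicate 1. Inside the exon, neighbouring CpGs differed in opposite directions. CpG25 (position 53432040) had 53.4% and 52.1% in WT and 41.0% and 47.7% in iKO, and CpG26, 6 bases 3′ of it, had 55.2% and 54.6% in WT and 41.6% and 50.4% in iKO, both lower in iKO without overlap. CpG27 (position 53432007) had 11.7% and 13.5% in WT and 20.7% and 20.6% in iKO, higher without overlap, and CpG28 had 3.60% and 6.70% in WT and 6.75% and 7.85% in iKO.

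The exon 1 values of the replicate 1 libraries rest on few reads. CpG27 had 26 of 222 reads with C in WT replicate 1 (95% Wilson interval, 8.12% to 16.6%) and 49 of 237 in iKO replicate 1 (16.01% to 26.3%), so the intervals overlapped slightly. In replicate 2 they were 168 of 1241 (11.7% to 15.6%) and 322 of 1564 (18.7% to 22.7%), which did not overlap. In the regression the difference at CpG27 was 7.86 points (95% interval, -2.12 to 17.8; adjusted p = 0.866, higher in iKO in both replicate numbers).

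Windows of 30 bases on the minus strand around the CpG with the largest decrease, the CpG with the largest increase and the exon 1 CpG with the largest increase are printed to show where they lie, with the CpG in capitals. CpG16 is at chr11:53440324-53440353, CpG27 at chr11:53431992-53432021 and CpG30 at chr11:53431868-53431897.
CpG16: aacctcgtcatctcCGctctgagcatcaca
CpG27: ttgagagagatcatCGgcattttgaacgag
CpG30: gctagagaggtggaCGgacggcaggtggct
CpG15 lies 9 bases 5′ of CpG16, in the same window, and CpG31 lies 4 bases 3′ of CpG30. The letters GATA or TATC, the 2 strands of the core that GATA factors such as the Th2 regulator GATA3 bind, occur in none of these 3 windows. They occur in 9 of the 64 windows of the locus (14.1%) and in 10.4% of the 1163518 windows of the same length around the CpGs of chromosome 11. Of those 9 CpGs, 6 had a higher mean in iKO, with a median difference of 0.0698 points, beside 36 of the other 54 with a median of 0.679 points. The means were -1.22 and 0.679 points. Both iKO libraries were above both WT libraries at 0 of the 9 and below at 2, and at 17 and 5 of the 54.

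Exon 3 (chr11:53427375-53427537, CpGs 43 to 47, the last of them in intron 3) kept a high level in all 4 libraries, with 95.98% and 95.4% in WT and 96.7% and 95.6% in iKO. The genotypes overlapped and the difference was 0.478 points (95% interval from limma, -0.702 to 1.66; exact permutation p = 0.667), or -0.0652 points without iKO replicate 1. Its largest single difference was 1.35 points at CpG45. At all 5 CpGs of exon 3, the read count of both replicate 2 libraries stood at 65535, the upper limit of the deposited counts, so their depth is a lower bound.

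The core and 3′ edge of CNS2 (CpGs 52 to 64) had 0.397% and 0.323% in WT and 0.378% and 0.384% in iKO. The genotypes overlapped, beside an unconverted share of 0.154% to 0.174% at non-CpG cytosines. The difference was 0.0214 points (95% interval from limma, -1.76 to 1.80; exact permutation p = 1), -0.0153 points without WT replicate 2, and 0.107 points when CpGs were weighted by their reads. CpG53 had 0 of 1008 and 0 of 671 reads with C in WT, which allow levels of up to 0.298% and 0.447% (3 counts), and 4 of 794 and 8 of 1149 in iKO, 0.504% and 0.696%. CpG64 had the highest WT level, with 3 of 159 and 2 of 367 reads, and 0 of 140 and 5 of 607 in iKO.

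The second-cycle WT libraries of the TET line give a wider view of WT cells under the same protocol. For the promoter they had 24.9% and 22.2%, and both iKO values were above all 4 WT values. The 5′ edge of CNS2 showed the same order, with 15.2% and 16.3% in WT of the TET line. In the other 6 regions the iKO values overlapped the 4 WT values, which ran from 21.3% to 34.7% in CNS1, from 50.9% to 57.9% in the amplicon of intron 1 and exon 2 and from 24.3% to 36.7% in the 3′ region of HSII. Over single CpGs, 12 of 63 (19.0%) had both iKO values outside the range of the 4 WT libraries, 7 above and 5 below.

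Against naïve cells, the region mean was lower in both genotypes in 7 of the 8 regions, exon 3 being the exception (adjusted p under 0.05 by limma). The regression called 41 of 56 CpGs (73.2%) lower in iKO than in naïve cells and 42 of 56 (75.0%) lower in WT, and 0 higher in either. These 2 comparisons share the naïve libraries, so their values are given side by side. CNS1 had 92.7% in naïve cells, of which 27.1% remained in WT and 24.2% in iKO. The 3′ region of HSII kept 28.9% of its naïve level in WT and 32.4% in iKO. The amplicon of intron 1 and exon 2 kept 56.9% in WT and 61.7% in iKO, and the promoter, the region with the lowest naïve level outside CNS2 (49.6%), kept 48.6% and 55.2%. In exon 3, the shares were 99.8% in WT and 100.3% in iKO, and 0 of 5 CpGs were called in either. The single CpGs of exon 1 were not tested against naïve cells because 1 naïve library had under 100 reads there; the region kept 45.8% and 44.2% of the mean of the other 2.

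The same contrast in the TET line gives the size of an effect that the assay could register at these CpGs. In the second cycle, 42 of 60 CpGs (70.0%) were called higher in iTKO than in its WT. The difference between the 2 effects was itself tested: at 38 of 60 CpGs (63.3%) the TET effect was larger than the TDG effect, and at 0 it was smaller. Among them was every tested CpG of CNS1 (17), the promoter (4) and exon 1 (6), most of the CpGs of the intron 1 amplicon (8 of 9) and of the 5′ edge of CNS2 (3 of 4), and 0 of the 20 tested CpGs of the 3′ region of HSII, exon 3 and the core and 3′ edge of CNS2. At 3 of the 38, all in the intron 1 amplicon, the 95% interval of the difference in points included 0. The test is made on log odds and the interval in points, and at CpG35 the difference was 9.97 points (-0.687 to 20.6). CpGs 62 to 64 were not tested, because an iTKO library had under 100 reads at them. Of these, CpG63, picked out after its values were seen, had 20.3% and 20.5% in iTKO and 0.709% and 0.2195% in its WT. The mean of the core and 3′ edge of CNS2 over all 13 CpGs, these 3 included, gave a TET effect larger by 3.34 points (95% interval from limma, 0.826 to 5.85; adjusted p = 0.0183). In CNS1 the TET effect was 58.0 points (95% interval from limma, 50.3 to 65.8), beside -2.66 points for TDG. In the 3′ region of HSII it was 6.41 points (95% interval from limma, -2.18 to 15.01), beside 3.12 points, and the difference of the 2 effects, 3.29 points (95% interval from limma, -8.87 to 15.5), did not pass the test. At CpG29, the lowest CpG of its amplicon in WT, iTKO was 75.5 points above its WT (95% interval, 67.5 to 83.4) and TDG iKO 3.42 points above its own (-4.84 to 11.7).

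**Figure D3:**
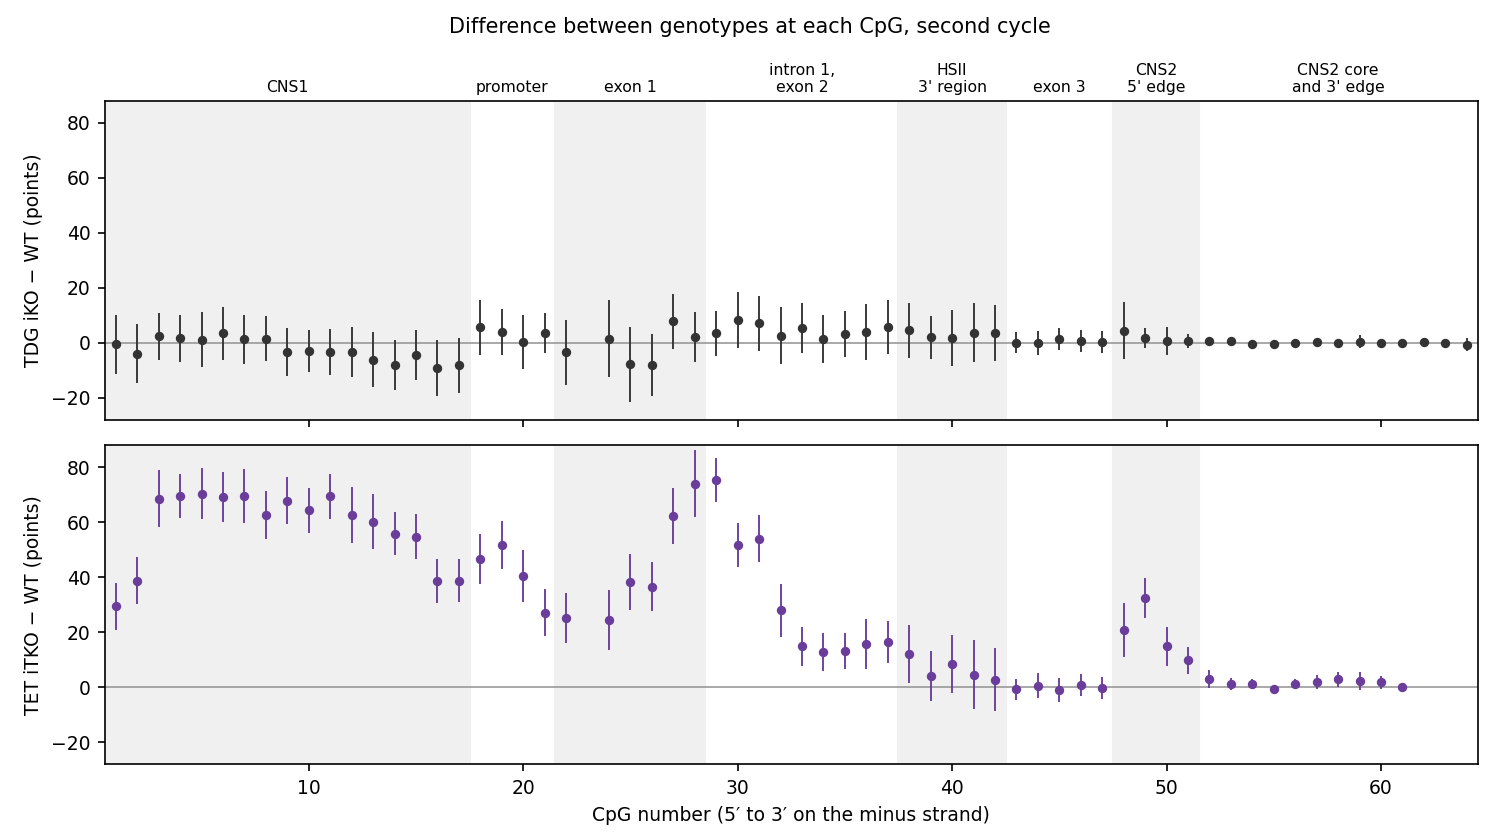
Difference in level between the knockout and its WT (vertical axis, percentage points) at each CpG (horizontal axis, CpG number) in the second cycle, for the TDG line (upper) and the TET line (lower), with 95% intervals from the regression as bars. All 63 intervals of the TDG line include 0, and 42 of 60 CpGs of the TET line were called.

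The region means were lower in the second cycle than in the first, in WT in every region and in iKO in all but exon 3. Exon 3 changed little, from 95.83% to 95.71% in WT and from 95.78% to 96.19% in iKO. In CNS1 the mean went from 70.0% to 25.1% in WT and from 66.0% to 22.4% in iKO, and in the 3′ region of HSII from 68.8% to 26.2% in WT and from 68.4% to 29.3% in iKO. In the promoter, it went from 34.5% to 24.1% in WT and from 30.8% to 27.4% in iKO, since both first-cycle iKO libraries (31.8% and 29.8%) were below both WT libraries (35.2% and 33.7%), the reverse of the order in the second cycle. The TDG effect of the second cycle minus that of the first was called at 0 of 46 CpGs (0%) by the regression, with 0 at an unadjusted p under 0.05 and 0 by limma on log2 ratios. For the promoter mean it was 6.95 points (95% interval from limma, -4.97 to 18.9). The single CpGs of CNS2 were not tested here, because the replicate 2 libraries of the first cycle had no reads for it. Its region means, with 1 first-cycle library of each genotype, gave 4.06 points at the 5′ edge (95% interval from limma, -2.17 to 10.3) and -0.124 points in the core and 3′ edge (-3.20 to 2.96).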

How the data were processed

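The deposited files hold, per cytosine and strand, the count of reads with C and the count of reads with C or T. Per the labels and methods, the authors mapped the reads of each amplicon to mm9 with BSMAP (-w 2 -v 5 -q 30; version not given). Amplicons were placed on the reference genome by their primers, and annotation came from GENCODE vM1. CpGs needed 100 reads in each library compared; first-cycle TDG samples labelled as separate replicates were summed where their file names give the same library name. In R 4.3.3, each CpG was fitted by binomial regression over 22 libraries in 10 groups, with weights for overdispersion (0.00943, shared by all CpGs). Dispersions were moderated by limma 3.58.1 and not let below 1, and their median was 1. This floor can only widen intervals and raise p-values. Contrasts were tested by an F-test, with Benjamini-Hochberg adjustment over all CpGs tested. Region means are unweighted means over CpGs, with limma intervals over the 22 libraries and exact permutation tests over the 4. Python 3.11.15 with scipy 1.17.1 gave Wilson intervals. Tested on simulated data, the fit made no call where no difference was put in and missed raised CpGs in every run, in some runs most of them. The simulated counts were drawn with the fit's own overdispersion and independently at each CpG. They lack the molecules that CpGs of an amplicon share, so they cannot show how often the fit calls wrongly in the real data. Named CpGs were those with the largest increase, the largest decrease, the largest difference or the lowest or highest WT level of a region, those in stretches the study names (CpGs 3 to 8, 25 to 31, 38 to 42), and those called in a fit or by Fisher's exact test within both replicate numbers. The members and lists were chosen with earlier results of these data known.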

Additional observations from a re-analysis of the deposited data

Results flagged for a closer look

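A difference between groups stands out in the second cycle: the effect of the TET knockout was larger than that of the TDG knockout at 38 of 60 CpGs, by a test of the difference itself. The 38 CpGs lay in CNS1, the promoter, exon 1, intron 1 and exon 2, and the 5′ edge of CNS2.

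A signal was also present in data outside the bisulfite libraries. In pyridine borane sequencing (PB-seq), which reads 5fC and 5caC as T, with reads with C multiplied by 0.5, TDG-deleted Th2 cells of the first cycle had a higher level than their controls. The mean over 47 CpGs of the locus, which do not include CNS2, was 1.465% in iKO and 0.411% in WT of the tamoxifen-induced line, higher in iKO at 37 CpGs. In the line with CD4cre, it was 2.463% in Tdg-KO and 0.318% in WT, higher in Tdg-KO at 35 CpGs. The regions differed. In the tamoxifen-induced line, CNS1 had 2.19% in iKO and 0.466% in WT, and the promoter 2.18% and 0.744%. The 3′ region of HSII had 0.423% in iKO and 0.342% in WT, and exon 3 had 0.349% and 0.271%. At non-CpG cytosines the same quantity was 0.217% and 0.229% in iKO and WT of the first line and 0.254% and 0.221% in the second. The labels of the first line number 2 replicates of each genotype, which were summed because their file names give 1 library; apart, they had 1.548% and 1.395% in iKO and 0.491% and 0.330% in WT. The study's caption gives 2 independent experiments for these data, and whether the labelled replicates are separate libraries is not stated. Counted as 1 library of each kind, the difference was not tested.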

How the results depend on the processing

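The count of CpGs called between iKO and WT was 0 in 10 of 12 alternatives, the replicate block among them, which pairs libraries by a replicate number that is not said to stand for shared animals. Fisher's exact test, which leaves out the spread between libraries, called 43 CpGs on summed reads and 12 within both replicate numbers. With at least 500 reads, fewer CpGs could be tested: 19 of 35 were called for the TET effect minus the TDG effect, 13 of 18 for iKO against naïve cells and 13 of 18 for WT against naïve cells. The TDG effect of the second cycle minus that of the first was called at 0 CpGs in 13 of 13 alternatives. Keeping the first-cycle samples labelled as separate replicates apart, an alternative chosen after seeing the data, left it at 0 of 45.

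Of 71 alternatives for the region differences, 50 gave another value than the main one, and 46 of these kept the direction; the replicate block gives the same value by arithmetic. With at least 500 reads, CNS1 was down to 4 CpGs and its difference was -7.51 points, the core and 3′ edge of CNS2 had 0.113 points, and exon 1 had no CpG left and no value. Weighted by reads, the core and 3′ edge of CNS2 had 0.107 points, CNS1 -6.45 and the 5′ edge of CNS2 1.24. The mean over all CpGs was 1.23 points with at least 500 reads. Leaving out each library in turn turned the direction in CNS1 (-6.44 to 1.12 points), exon 1 (-3.70 to 0.803), exon 3 (-0.0652 to 1.02), the core and 3′ edge of CNS2 (-0.0153 to 0.0581) and the mean over all CpGs (-1.23 to 2.05); the cause was not tested. The count of CpGs without overlap, under alternatives chosen after seeing the data, was 24 with at least 20 reads and 19 of 41 with at least 500 reads. A lone library left in a group was assumed to vary like the other groups.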

Other observations

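The PB-seq level of the first cycle and the bisulfite difference of the second cycle can be set side by side at single CpGs. CpG28 had the largest PB-seq difference in the tamoxifen-induced line, with 5.72% in iKO and 0.493% in WT, and its bisulfite difference in the second cycle was 2.15 points. CpG7 came next, with 4.96% in iKO and 0.619% in WT, beside 0.664 points. CpG29 followed CpG7, with 4.97% in iKO and 0.821% in WT, beside 3.29 points. After these came CpG9, CpG11 and CpG3, with bisulfite differences of -3.41, -3.30 and 1.88 points. CpG9 and CpG11 were picked out after their values were seen. CpG14 followed CpG3, with 3.10% in iKO and 0.364% in WT, and had a bisulfite difference of -8.08 points. Across 46 CpGs, the PB-seq difference between iKO and WT and the bisulfite difference had a Pearson correlation of -0.100. The CpGs share libraries and molecules, and the assays were run on different cycles.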
